A study of Mus musculus with 8 samples.

Results

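The genes described here are 10 enzymes of antioxidant defence and glutathione use in the postnatal mouse ventricle: Sod1, Sod2, Cat, Gpx1, Gpx3, Prdx3, Prdx6, Txnrd1, Gsta3 and Gstm1. They were picked by symbol from the 21970 rows of the deposited expression table with their levels over the stages already known, so their values are given as a description, without a test. All 10 had a row, and all 10 passed the filter on low values that kept 14055 genes. RNA with poly(A) tails was sequenced from whole ventricle, the lower chambers of the heart, of C57BL/6J mice, in 2 libraries for each of 4 ages: day 3 after birth (P3), day 6 (P6), day 12 (P12) and day 24 (P24). No mutation, transgene or treatment was labelled in any group, but the C57BL/6J strain that all groups share is known to carry a deletion in Nnt, which encodes the transhydrogenase that makes NADPH in the mitochondrial matrix. Whole ventricle mixes muscle, vessel, connective tissue and immune cells, so in these bulk libraries fewer cells of a type and less RNA per cell cannot be told apart. The labels do not say that replicates came from separate animals, so standard errors and p-values cover no more than the spread between libraries.

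Superoxide dismutases turn superoxide, which leaks from the respiratory chain, into hydrogen peroxide. Catalase, glutathione peroxidases and peroxiredoxins then reduce the peroxide, the peroxidases with electrons from glutathione and most peroxiredoxins with electrons from thioredoxin, which thioredoxin reductase recharges with NADPH. Glutathione transferases join glutathione to reactive products such as oxidised lipids. After birth the mouse heart meets more oxygen, turns to burning fatty acids in mitochondria and stops renewing most of its muscle cells, and oxidants are one of the signals studied in that transition.

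The deposited counts had been scaled between libraries, and whole reads could be recovered from them, between 23375967 and 28745112 per library. The P6 libraries stood apart from each other: the median absolute log2 difference between replicates over all tested genes was 0.39 at P6, against 0.12 to 0.15 at the other stages. Short genes were high in P6 replicate 2 and low in P6 replicate 1. In the 10% of genes that are shortest the median was 0.32 against -0.26 (log2, relative to each gene's mean over the libraries). These short genes also differed between stages, with 0.16 and 0.28 in the P12 libraries, -0.18 and -0.15 at P3 and -0.06 and -0.07 at P24. Reads of Y-linked genes were found in P6 replicate 1, P12 replicate 1 and P24 replicate 2 and numbered at most 4 in each other library. Comparisons with P3 are thus not balanced for these reads, a sign of male tissue, which neither P3 library showed. At each later stage the 2 replicates also differed in them. For the marker lists, rose and fell mean a Benjamini-Hochberg adjusted p below 0.05 for P24 over P3 (limma). Of all tested genes 18.7% were called higher and 18.2% lower in that way. All 7 ventricular muscle markers had reads, their summed normalized counts lay between 1412570 and 2116160, and 2 rose (Myl3 and Pln). The 5 atrial markers set P3 replicate 1 apart, with a sum of 12071 against 4789 in P3 replicate 2 and at most 5276 in the P6, P12 and P24 libraries, and 1 fell. Of 7 mural cell markers 2 rose (Rgs5 2.32-fold and Kcnj8 3.10-fold) and 1 fell (Acta2, 0.433-fold). Their sums were 54233 and 55499.6 at P24 against 49449 and 57404 at P3. The 7 endothelial markers summed to 50302.5 and 54696.5 at P24 against 46968 and 53874 at P3, and their sums at P6 and P12 lay between 66369 and 76170. Macrophage markers were higher at the last stage: 7 of 8 rose, and their sum was 10968.5 and 11485 at P24 against 4212 and 3369.85 at P3. Of 7 fibroblast markers 3 rose and 1 fell, with sums of 33859 and 33586 at P24 against 20577 and 16418 at P3. Red cell marker sums were 30314 and 24538 at P24 against 14832 and 40576 at P3, and 1 of 7 fell. The part of these cell types in the values given here was not tested. The 7 fat cell markers summed to at most 14.9 in any library, with Lep and Ucp1 at 0 in every library, and the 5 liver markers summed to at most 48.8.

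The enzymes did not share one course. Gsta3 and Gstm1 stood far above their earlier levels at P24, 29.8-fold and 3.80-fold over P3. The mitochondrial enzymes Sod2 and Prdx3 were higher at each later stage mean, reaching 1.95-fold and 1.98-fold of P3. Prdx6, Gpx3 and Cat were 1.20-fold to 1.36-fold of P3 at P24, Gpx1 was 0.652-fold, and Sod1 and Txnrd1 had P24 libraries that overlapped those of P3. In counts, 7 of the 10 had both P24 libraries above both P3 libraries, 1 had both below and 2 overlapped. Over all tested genes, 38.6% were above and 39.9% below in the same way. The median log2 difference of P24 over P3 was 0.42 for the 10 enzymes and -0.02 for all tested genes.

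**Figure D1:**
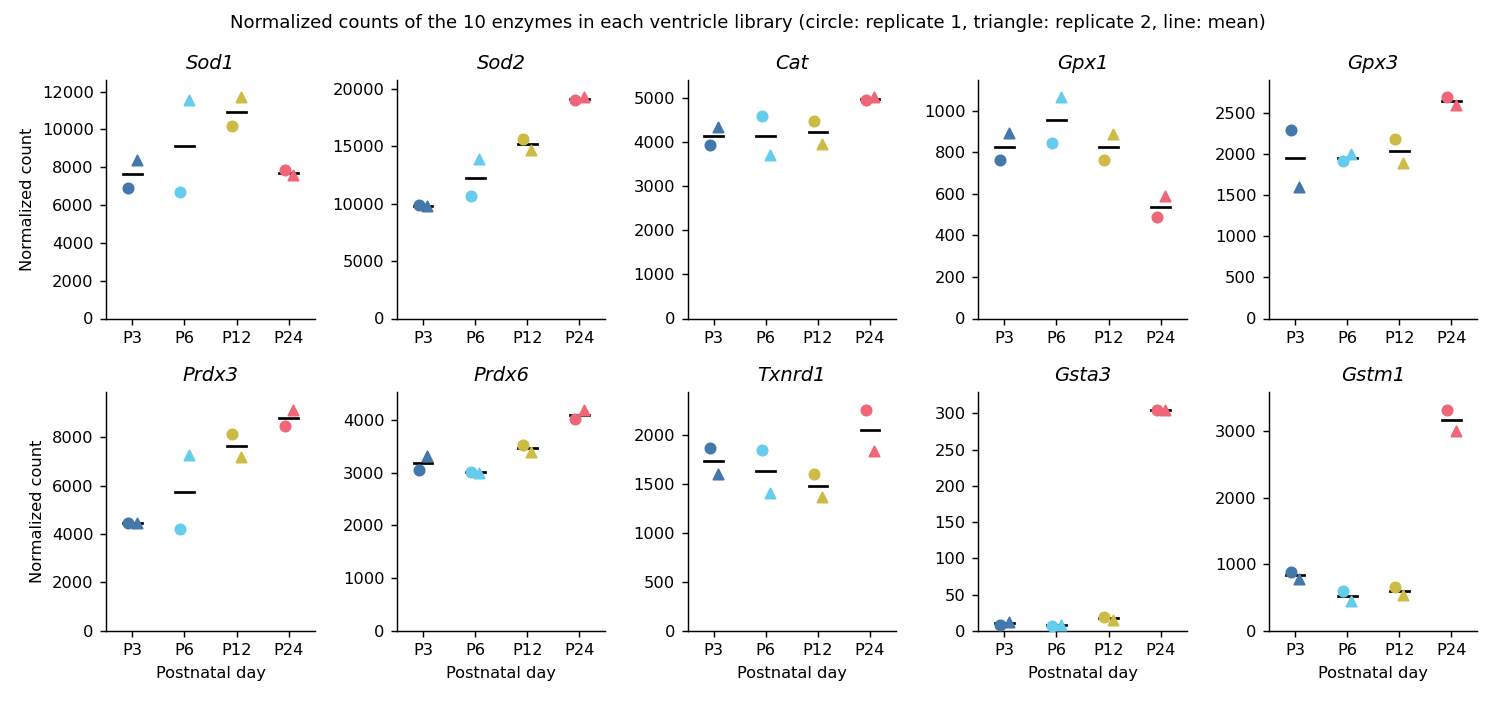
Normalized count of each enzyme (vertical axis, from 0, own scale per panel) in the 2 libraries of P3, P6, P12 and P24 (horizontal axis), drawn as a circle and a triangle, with the stage mean as a line. Gsta3 and Gstm1 are far higher in the P24 libraries than in the other 6, the means of Sod2 and Prdx3 are higher at each later stage, and Gpx1 is lowest at P24.

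The conjugating enzymes showed the widest range. Gsta3 (ENSMUSG00000025934), an alpha-class glutathione transferase, had normalized counts of 8.44 and 12.01 in the P3 libraries, 6.08 and 8.54 in those of P6, 19.0 and 15.4 in those of P12 and 305 and 305 in those of P24. The earlier values rest on few reads, between 6 and 18 per library before P24 against 225 and 248 at P24. Both P24 libraries lay far above the other 6, and the P12 libraries above those of P6 and P3. The log2 difference was 4.79 ± 0.32 (standard error of the fit) for P24 over P3 and 4.08 ± 0.32, or 17.7-fold, for P24 over P12. Those for P12 over P6 and P6 over P3 were 1.14 ± 0.32 and -0.43 ± 0.32. The other alpha-class genes Gsta1 and Gsta2 had at most 6.15 in any library, and Gsta4 had 1397 and 1612 at P24 against 1025 and 1129 at P3. Of the 50-base stretches of Gsta1 and Gsta2 transcripts 89.7% and 47.4% also occur in other genes, so their low levels are uncertain. Gsta3 shared no 50-base stretch with the transcripts of any other gene in the mouse annotation at hand, GENCODE vM21.

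Gstm1 (ENSMUSG00000058135), a mu-class transferase, had 879.8 and 783 in the P3 libraries, 604 and 451 in those of P6, 654 and 534 in those of P12 and 3321 and 3001 in those of P24. Its level was lower in the middle stages: both P6 libraries lay below both P3 libraries, the P12 libraries overlapped those of P6, and the P24 libraries were the highest. The log2 differences were 1.93 ± 0.18 for P24 over P3, -0.67 ± 0.18 for P6 over P3 and 2.42 ± 0.18, or 5.32-fold, for P24 over P12. Gstm1 lies in a run of 7 Gstm genes on chromosome 3, with 0 other protein-coding genes between them in RefSeq. Of the 50-base stretches of its transcripts 19.9% also occur in other genes, foremost in Gstm2-ps1 and Gstm3, so its level is uncertain to that extent. Gstm3 itself had at most 2.46 normalized counts in any library, with 28.8% of its 50-base stretches shared with other genes.

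The neighbours of Gstm1 in the cluster did not all take its course. Gstm2, which lies directly beside it, had 1493 and 1459.7 at P24 against 629.8 and 632 at P3 and rose (1.23 ± 0.18, adjusted p = 0.00086 after Benjamini-Hochberg correction in limma), also over P12 (0.98 ± 0.18, adjusted p = 0.00771). Of its 50-base stretches 8.3% occur in other genes, Gstm1 among them. Gstm7 had 1133 and 1107 at P24 against 268 and 240.2 at P3, a log2 difference of 2.14 ± 0.19 with a Benjamini-Hochberg (BH) adjusted p of 4.56e-05 (limma, over all tested genes). Gstm6 had 27.1 and 25.8 at P24 against 47.5 and 73.1 at P3, with a log2 difference of -1.13 ± 0.31 and adjusted p = 0.0197, a call that was lost without P3 replicate 2 or either P24 library. Gstm4 had 280.4 and 282 at P24 against 266 and 279 at P3 and did not pass (adjusted p = 0.85), nor did Gstm5, with 1191 and 1335.5 at P24 against 954 and 955 at P3 (adjusted p = 0.2). Among 23 other glutathione transferase genes 18 were tested, of which 8 rose and 1 fell for P24 over P3, with a median log2 difference of 0.73. Of all tested genes 36.9% passed, 18.7% higher and 18.2% lower. The largest rise was that of Gstk1, a transferase of mitochondria and peroxisomes, with 1620.3 and 1825 at P24 against 268 and 237 at P3 (2.77 ± 0.26, adjusted p = 6.28e-05). Gstt1, of the theta class, had 387 and 312 at P24 against 70.7 and 79.7 at P3 (2.20 ± 0.25, adjusted p = 0.000203).

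Nrf2, the transcription factor that many of these genes are known to answer to, binds the antioxidant response element, whose core is often written TGACNNNGC. RefSeq promoter windows of 300 bases (250 before and 50 after a start site, build GRCm38.p6) were at hand for 9 of the 10 enzymes, 12 windows in all. The core or its other strand, GCNNNGTCA, occurred in 3 of the 12 windows, against 12.4% of the 32851 windows of all genes. The matches lay 121 bases before the start of Gsta3, 92 bases before a start of Txnrd1 and 56 bases before the start of Sod1. Those windows are shown because they hold the letters, in capitals, and that of Gstm1 because it belongs to the other enzyme that was high at P24 and holds none.
Gsta3, chr1:21240335-21240634, plus strand: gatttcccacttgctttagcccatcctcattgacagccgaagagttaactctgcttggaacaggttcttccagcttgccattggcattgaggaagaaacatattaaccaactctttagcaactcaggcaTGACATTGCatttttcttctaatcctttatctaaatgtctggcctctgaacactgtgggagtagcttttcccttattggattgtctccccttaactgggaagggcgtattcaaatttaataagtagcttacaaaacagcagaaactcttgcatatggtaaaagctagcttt
Txnrd1, chr10:82858956-82859255, plus strand: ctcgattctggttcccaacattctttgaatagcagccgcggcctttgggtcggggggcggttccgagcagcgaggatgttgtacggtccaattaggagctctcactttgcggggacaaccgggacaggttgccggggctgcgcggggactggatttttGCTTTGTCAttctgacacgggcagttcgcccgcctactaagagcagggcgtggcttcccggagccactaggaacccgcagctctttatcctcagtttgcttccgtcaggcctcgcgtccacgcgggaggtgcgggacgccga
Sod1, chr16:90220512-90220811, plus strand: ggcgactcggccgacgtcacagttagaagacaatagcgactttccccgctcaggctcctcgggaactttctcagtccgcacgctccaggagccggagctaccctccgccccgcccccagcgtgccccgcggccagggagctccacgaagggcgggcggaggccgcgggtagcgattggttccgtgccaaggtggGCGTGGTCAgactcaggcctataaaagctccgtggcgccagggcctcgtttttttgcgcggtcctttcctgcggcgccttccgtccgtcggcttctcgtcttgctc
Gstm1, chr3:108017924-108018223, minus strand: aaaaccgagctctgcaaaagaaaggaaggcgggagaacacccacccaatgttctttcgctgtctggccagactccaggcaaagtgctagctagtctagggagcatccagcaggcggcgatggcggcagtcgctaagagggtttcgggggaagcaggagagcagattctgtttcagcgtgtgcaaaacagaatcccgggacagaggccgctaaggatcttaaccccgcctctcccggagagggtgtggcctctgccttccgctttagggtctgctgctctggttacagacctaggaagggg
The 3 genes with a match had unlike courses, Gsta3 far higher at P24, Sod1 with its highest mean at P12, where its libraries overlapped those of P6, and Txnrd1 higher at P24 than at P12 with P24 and P3 overlapping. A match is a description of the letters and not a binding site, and the absence of a match says only that the letters are not in that window. The looser TGANNNNGC or its other strand, which includes every match of the core, occurred in 4 of the 12 windows, against 41.3% of all windows, and TGACTCA or TGAGTCA in 0 of the 12, against 5.2%. The windows of these 4 also differed in base composition, with 41% G and C in that of Gsta3 and 66.7% in that of Sod1.

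The superoxide dismutases parted at P24. Sod2 (ENSMUSG00000006818), the manganese enzyme of the mitochondrial matrix, had 9843 and 9777 in the P3 libraries, 10667 and 13855 in those of P6, 15640.3 and 14708 in those of P12 and 19036 and 19247 in those of P24. Its libraries did not overlap between any of the stages, each stage lying above the one before. Its log2 difference of P24 over P3 was 0.96 ± 0.16, and the successive steps were 0.31, 0.32 and 0.34, each ± 0.16. Sod1 (ENSMUSG00000022982), the copper and zinc enzyme of the cytosol, had 6881 and 8400.07 in the P3 libraries, 6684 and 11551 in those of P6, 10188 and 11691 in those of P12 and 7831 and 7580.3 in those of P24. Its P24 libraries lay below those of P12, with a log2 difference of -0.50 ± 0.24, and within the range of P3, with one of 0.02 ± 0.24. The P6 replicates differed 1.73-fold, and 23.1% of the 50-base stretches of Sod1 also occur in other genes, foremost the pseudogene Gm8566, so its level is uncertain.

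The ratio of Sod2 to Sod1 within a library, in FPKM (fragments scaled to gene length and library size), does not depend on the scaling between libraries. It was 0.567 and 0.462 in the P3 libraries, 0.633 and 0.476 in those of P6, 0.609 and 0.499 in those of P12 and 0.964 and 1.01 in those of P24. The P24 libraries lay above all 6 earlier ones, which overlapped one another. Sod3, the secreted superoxide dismutase, had 564 and 660.4 at P24 against 185 and 169 at P3 and rose (1.78 ± 0.25, adjusted p = 0.000642, limma). Ccs, the copper chaperone of Sod1, had 557 and 574 at P24 against 537 and 586 at P3 and did not pass (adjusted p = 0.967).

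Catalase splits hydrogen peroxide in peroxisomes. Cat (ENSMUSG00000027187) had 3935 and 4332 in the P3 libraries, 4585 and 3696 in those of P6, 4469 and 3958 in those of P12 and 4944 and 5003 in those of P24. The libraries of P3, P6 and P12 overlapped, and those of P24 lay above all of them, by 0.27 ± 0.15 over P3 on the log2 scale. Of 15 genes of peroxisome assembly 2 rose (13.3% called, below the 36.9% of all tested genes). Pex11a, a peroxisome division factor, had 579 and 523 at P24 against 258 and 306 at P3 (0.97 ± 0.16, adjusted p = 0.0017). Pex6, part of the complex that recycles the import receptor, had 1318 and 1222 at P24 against 751 and 756 at P3 (0.75 ± 0.13, adjusted p = 0.00227).

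The glutathione peroxidases went opposite ways. Gpx1 (ENSMUSG00000063856), the peroxidase of cytosol and mitochondria, had 762 and 892 in the P3 libraries, 844 and 1064 in those of P6, 765 and 887 in those of P12 and 488 and 590.3 in those of P24. Its first 3 stages overlapped, and both P24 libraries lay below all earlier ones, with log2 differences of -0.62 ± 0.18 over P3 and -0.62 ± 0.18 over P12. Gpx3 (ENSMUSG00000018339), the secreted peroxidase of plasma and tissue fluid, had 2295 and 1599 in the P3 libraries, 1919.6 and 1999 in those of P6, 2185 and 1893 in those of P12 and 2691 and 2595 in those of P24. Both P24 libraries were its highest, 0.46 ± 0.18 over P3 on the log2 scale, where the P3 replicates themselves differed by 0.52, and this difference ran over 0.20 to 0.72 with 1 library left out. Within libraries the FPKM ratio of Gpx3 to Gpx1 was 4.38 and 3.49 at P24 against 2.40 and 1.43 at P3, without overlap, and that of Cat to Gpx1 was 5.59 and 4.67 at P24 against 2.85 and 2.68 at P3.

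Of the other 6 glutathione peroxidase genes, Gpx2, Gpx5 and Gpx6 were at 0 in every library, which allows a share of up to 1.28e-05% of the reads in the shallowest library (3 reads, counting error only). Gpx4, which reduces lipid peroxides within membranes, had 11411.5 and 11229 at P24 against 6057 and 5735 at P3 (0.94 ± 0.26, adjusted p = 0.0203). That call was lost with scaling by library total and without any 1 of the P3 or P24 libraries, and 51.4% of the 50-base stretches of Gpx4 occur in other genes. Gpx7, a peroxidase of the endoplasmic reticulum, had 241 and 239.8 at P24 against 709 and 618 at P3 and fell (-1.46 ± 0.18, adjusted p = 0.00034). Gpx8, of the same compartment, had 830 and 849 at P24 against 1069 and 932 at P3 and did not pass (adjusted p = 0.531).

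Prdx3 and Prdx6 were both highest at P24, and the difference of P24 over P3 was larger for Prdx3. Prdx3 (ENSMUSG00000024997), the peroxiredoxin of the mitochondrial matrix, had 4443 and 4454 in the P3 libraries, 4192 and 7256 in those of P6, 8139 and 7179 in those of P12 and 8484 and 9146 in those of P24. The P12 and P24 libraries lay above those of P3, and the P6 replicates, 1.73-fold apart, spanned the gap. The log2 difference of P24 over P3 was 0.99 ± 0.23, and that of P24 over P12 was 0.20 ± 0.23. Prdx6 (ENSMUSG00000026701), the peroxiredoxin that takes its electrons from glutathione, had 3054 and 3309.8 in the P3 libraries, 3020.2 and 2999 in those of P6, 3536 and 3399.5 in those of P12 and 4012 and 4197 in those of P24. Its stages did not overlap, in the order P24, P12, P3 and P6 from high to low, and P24 over P3 was 0.37 ± 0.13 on the log2 scale. The FPKM ratio of Prdx3 to Prdx6 was 6.87 and 7.08 at P24 against 4.73 and 4.37 at P3. The ratio of Prdx3 to Sod2, its partner in the matrix, stayed between 2.66 and 3.55 in all 8 libraries.

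Among the 4 other peroxiredoxins 1 rose and 1 fell, where 18.7% of all tested genes were called higher and 18.2% lower. Prdx5, which is found in mitochondria and peroxisomes, had 11682.5 and 11656 at P24 against 5261 and 5313 at P3 (1.14 ± 0.23, adjusted p = 0.00452), with 24.2% of its 50-base stretches shared with other genes. Prdx4, the peroxiredoxin of the endoplasmic reticulum, had 700.4 and 726 at P24 against 1647 and 1604 at P3 (-1.19 ± 0.22, adjusted p = 0.00286). The cytosolic Prdx1 and Prdx2 did not pass, with log2 differences of 0.29 ± 0.28 (adjusted p = 0.45) and -0.19 ± 0.22 (adjusted p = 0.526).

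**Figure D2:**
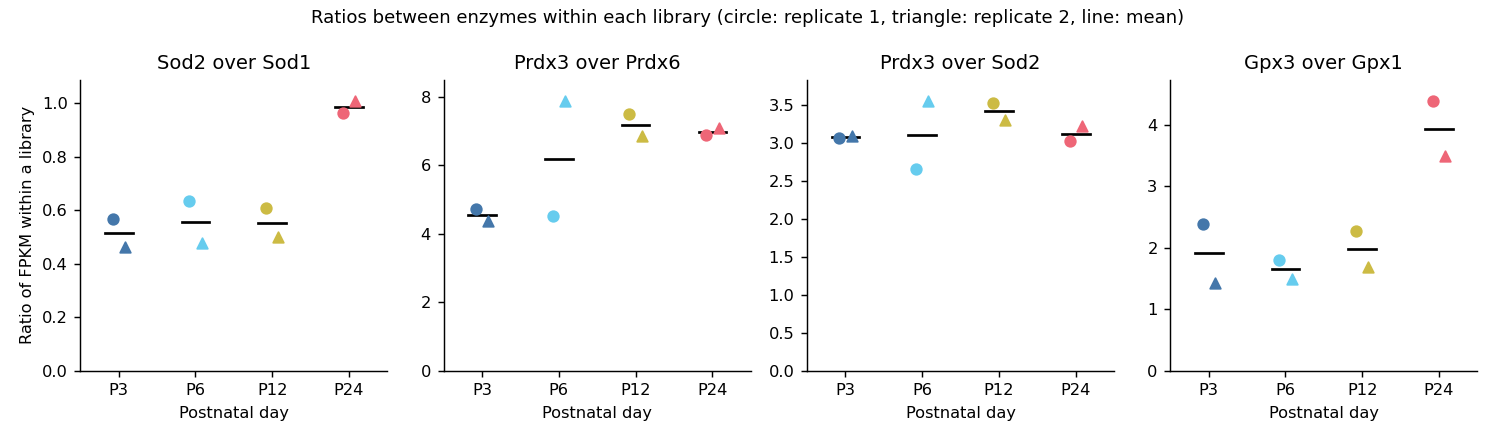
Ratio of the FPKM values of a pair of enzymes within each library (vertical axis, from 0) at P3, P6, P12 and P24 (horizontal axis), with a circle and a triangle for the 2 libraries and a line for the stage mean. Sod2 over Sod1 and Gpx3 over Gpx1 are highest at P24, Prdx3 over Prdx6 is higher at P24 than at P3, and Prdx3 over Sod2 stays between 2.66 and 3.55.

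Txnrd1 (ENSMUSG00000020250), the selenium-containing reductase that recharges cytosolic thioredoxin, had 1867 and 1596 in the P3 libraries, 1847 and 1402 in those of P6, 1594 and 1367 in those of P12 and 2253 and 1836 in those of P24. P6 overlapped both P3 and P12, and P24 overlapped P3 and P6 and lay above P12. The log2 differences were 0.24 ± 0.19 for P24 over P3 and 0.46 ± 0.19 for P24 over P12. Of 14 other genes of the thioredoxin and glutaredoxin system 8 rose and 1 fell (64.3% called, against 36.9% of all tested genes, 18.7% higher and 18.2% lower), with a median log2 difference of 0.48. Msrb1, a selenoprotein that repairs oxidised methionine, had 2813 and 2646 at P24 against 1072 and 1035 at P3 (1.37 ± 0.19, adjusted p = 0.000585). Srxn1, sulfiredoxin, which restores overoxidised peroxiredoxins, had 618 and 578 at P24 against 281 and 241 at P3 (1.20 ± 0.16, adjusted p = 0.000498). Msrb2, a mitochondrial enzyme that repairs oxidised methionine, had 1928 and 1928 at P24 against 979 and 1069.8 at P3 (0.91 ± 0.25, adjusted p = 0.0189). That call was lost with scaling by library total and without any 1 of the P3 or P24 libraries. Txnip, the thioredoxin-binding inhibitor, had 11452 and 6252 at P24 against 14254 and 18728 at P3. It was called lower with an adjusted p of 0.0462 (-0.95 ± 0.32), and the call was lost without either P3 or P12 library, without P24 replicate 2, with no filter on low values and with edgeR. Of its 50-base stretches 18.1% were shared with other genes.

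The glutathione pool was represented by 14 genes of synthesis, recycling and breakdown, of which 12 were tested and 5 rose (41.7% called, against 36.9% of all tested genes). They are of several kinds. Gclc, the catalytic subunit of the first synthesis step, had 604 and 531 at P24 against 395 and 385 at P3 (0.54 ± 0.15, adjusted p = 0.0205). The 7 genes that did not pass include Gclm, Gss and Gsr, also of synthesis and recycling. Their log2 differences were 0.25 ± 0.18, -0.06 ± 0.18 and -0.20 ± 0.16 (adjusted p = 0.32, 0.828 and 0.351, limma). Abcc1, an exporter of glutathione and its conjugates, had 1295 and 1618 at P24 against 569.7 and 594 at P3 (1.31 ± 0.16, adjusted p = 0.00029). The other 3 that rose act in breakdown. Ggct, gamma-glutamylcyclotransferase, had 562 and 629.6 at P24 against 119 and 122 at P3 (2.29 ± 0.26, adjusted p = 0.000178). Chac1, which cleaves glutathione, had 32.5 and 77.5 at P24 against 5.27 and 7.64 at P3 (2.80 ± 0.42, adjusted p = 0.00096), and its relative Chac2 had 449.8 and 518 at P24 against 205 and 156 at P3 (1.43 ± 0.21, adjusted p = 0.000889).

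Compared per length in FPKM, the enzymes changed places. At P3 the means ran from 107 for Prdx3 through 68.6 for Sod1, 56.4 for Cat, 38.3 for Gpx3, 35.0 for Sod2, 23.6 for Prdx6, 20.5 for Gpx1, 20.1 for Gstm1 and 8.72 for Txnrd1 to 0.0839 for Gsta3. At P24 they ran from 213 for Prdx3 through 76.5 for Gstm1, 69.2 for Sod1, 68.2 for Sod2, 67.9 for Cat, 52.0 for Gpx3, 30.5 for Prdx6, 13.3 for Gpx1 and 10.3 for Txnrd1 to 2.50 for Gsta3. Gstm1 was thus 8th at P3 and 2nd at P24, with Sod1, Sod2 and Cat overlapping one another at P24. At P3 Gpx3 and Sod2 overlapped, as did Gpx1 and Gstm1. Despite the 29.8-fold difference Gsta3 stayed the lowest of the 10 at P24, at the 39.2nd percentile of FPKM over the tested genes, where Prdx3 stood at the 98.6th.

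**Figure D3:**
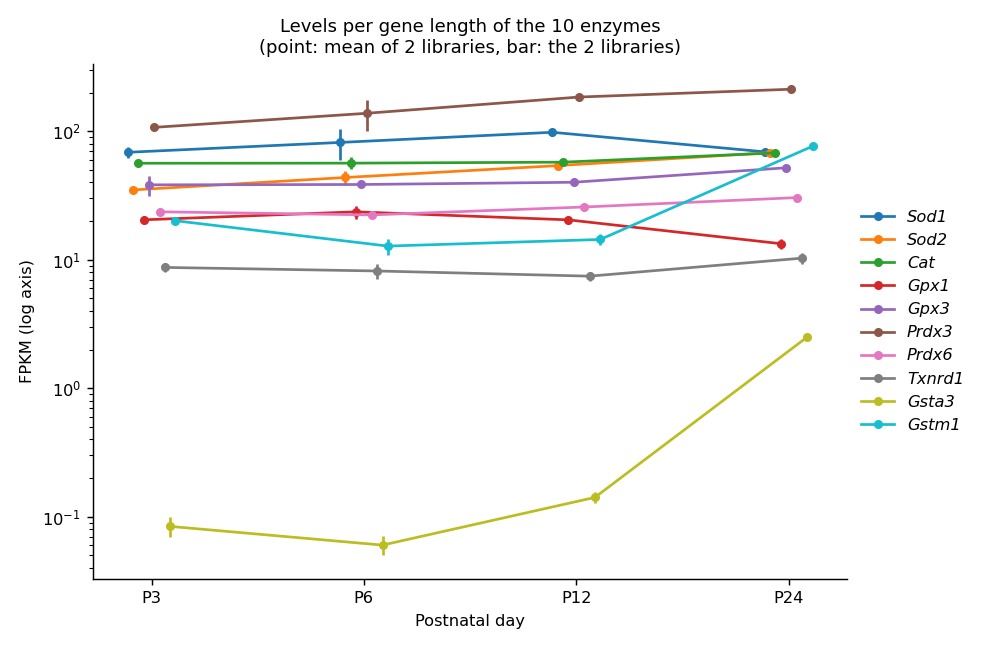
Level per length in FPKM (log axis) of the 10 enzymes at P3, P6, P12 and P24, with a point for the mean and a bar that joins the 2 libraries of each stage. Prdx3 is highest at each stage mean, Gstm1 is 8th at P3, P6 and P12 and 2nd at P24, and Gsta3 is lowest throughout.

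All 10 enzymes had separate libraries in the last step. Between P6 and P3, 1 enzyme was above, 2 were below and 7 overlapped, where 19% of all tested genes were above and 19.8% below. Between P12 and P6, 3 were above and 7 overlapped, against a background of 20.2% above and 24.8% below. Between P24 and P12, 8 were above and 2 below, against 40.2% above and 35.9% below in the table. The median log2 differences of these steps were 0.01, 0.19 and 0.29 for the 10 enzymes, against 0.00, -0.03 and 0.03 for all tested genes. The steps share libraries, so their values are not independent of one another. Steps that involve P6 depend on which of its libraries is taken. Sod1 was 0.875 of the P3 mean in P6 replicate 1 and 1.51 in replicate 2, and Prdx3 was 0.942 and 1.63 of it. Gstm1 was lower than at P3 in both P6 libraries, at 0.727 and 0.543 of the P3 mean. Txnrd1 and Cat were lower in P6 replicate 2, at 0.759 and 0.806 of replicate 1. Prdx3, Gpx1 and Gstm1 are among the shorter genes, at percentiles of 6.2, 5.8 and 6.14 of length over the tested genes. Short genes also stood higher in the P12 libraries than in those of P3, and the part of length in these steps was not tested.

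Small differences depended on the scaling. With each library scaled to its total alone, the median gene shifted to -0.36 for P24 over P3 on the log2 scale, against -0.02 with the deposited scaling. Sod1, Cat and Txnrd1 then turned to -0.33, -0.08 and -0.11, and Prdx6 and Gpx3 came to 0.02 and 0.12. Gsta3 (4.44), Gstm1 (1.58), Prdx3 (0.64) and Sod2 (0.62) kept positive values, and Gpx1 came to -0.97. Relative to the median gene Sod1 was 0.04 under the deposited scaling.

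**Figure D4:**
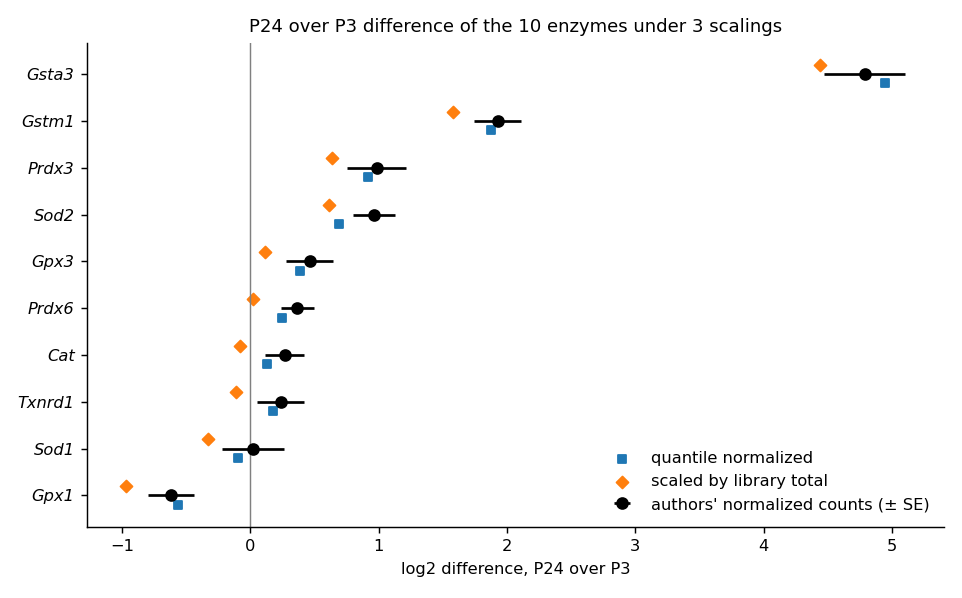
Log2 difference of P24 over P3 (horizontal axis) for each enzyme under the deposited scaling (circle, with the standard error of the fit as a bar), scaling by library total (diamond) and quantile normalization (square). Gsta3, Gstm1, Sod2 and Prdx3 are above 0 and Gpx1 below 0 in these 3 scalings, while Sod1, Cat and Txnrd1 fall on both sides of 0.

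Counted over all 12 lists of other redox genes, 61 of 123 tested genes (of 134 listed) passed for P24 over P3, 47 higher and 14 lower, or 49.6% against 36.9% of the table, with medians of 0.30 and -0.02. Scaled by library total, 31 were higher and 30 lower, and the share of higher calls in the table went to 23.1% against 50.6%. The count was 35 without P24 replicate 1 and 40 without P24 replicate 2. Without both P6 libraries it was 83, with all 61 among them.

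Nrf2 (Nfe2l2) itself had 1917 and 1591 at P24 against 1577 and 1900.5 at P3 and did not pass (adjusted p = 0.957, limma). In the list of 13 genes of Nrf2, related regulators and known targets 7 rose and 2 fell. That was 69.2% called, against 36.9% of all tested genes, 18.7% higher and 18.2% lower. The list leaves out genes of the same kind counted in other lists, such as Srxn1, Gclc, Gclm and Pgd. Its counts thus depend on how it was drawn. The 7 are not all targets. They include the regulators Nfe2l1 (0.86 ± 0.18, adjusted p = 0.00487), Mafg (0.91 ± 0.18, adjusted p = 0.00389) and Mafk (0.66 ± 0.16, adjusted p = 0.0129). Keap1, Bach1 and Blvrb did not pass (adjusted p = 0.0956, 0.325 and 0.312). Aox1, aldehyde oxidase, had 654 and 758 at P24 against 142 and 138 at P3 (2.32 ± 0.18, adjusted p = 2.1e-05). Nqo1, a quinone reductase, had 1147.5 and 947 at P24 against 372 and 345 at P3 (1.54 ± 0.17, adjusted p = 0.000194). The heavy chain of ferritin, which stores iron, rose and the light chain was called lower. Fth1 had 44982 and 42239 at P24 against 16199 and 15901 at P3 (1.44 ± 0.16, adjusted p = 0.000145). Ftl1 had 5309.5 and 4869.9 at P24 against 7045 and 7025 at P3 (-0.47 ± 0.15, adjusted p = 0.035), with 86.2% of its 50-base stretches shared with other genes. Hmox1, heme oxygenase, had 310 and 249.6 at P24 against 388 and 414 at P3 (-0.52 ± 0.17, adjusted p = 0.0418). The calls of Ftl1 and Hmox1 were lost without any 1 of the P3, P12 or P24 libraries and with a Y-linked term, and that of Hmox1 also with quantile normalization and with no filter.

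Of 12 genes of NADPH supply, on which glutathione and thioredoxin reduction rest, 4 rose and 3 fell (58.3% called, against 36.9% of all tested genes, 18.7% higher and 18.2% lower). The malic enzymes Me3, of mitochondria, and Me1, of the cytosol, rose by 1.83 ± 0.16 (adjusted p = 3.87e-05) and 1.09 ± 0.18 (adjusted p = 0.00156) on the log2 scale. Me3 had 2505 and 2848 at P24 against 761 and 737 at P3. Of the 50-base stretches of Me1 30.4% occur in other genes. Pgd and Tkt, of the pentose phosphate pathway, had -0.66 ± 0.13 (adjusted p = 0.00406) and -0.55 ± 0.14 (adjusted p = 0.0129), of which Tkt lost its call without any 1 of the P3 or P24 libraries and Pgd without P24 replicate 1. Mthfd2, the mitochondrial folate enzyme, had 97.5 and 71.3 at P24 against 305 and 281 at P3 (-1.80 ± 0.22, adjusted p = 0.000348). Nnt, carrying the deletion of this strain, still had reads, 482 and 440.3 normalized counts at P24 against 250.01 and 288 at P3 (0.78 ± 0.24, adjusted p = 0.0314). That call was lost with scaling by library total and without any 1 of the P3 or P24 libraries.

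Gpx1, Gpx3 and Txnrd1 carry selenocysteine, and of 16 genes that make or are other selenoproteins 3 rose and 3 fell. That was 37.5% called, close to the 36.9% of all tested genes (18.7% higher and 18.2% lower). The list leaves out selenoproteins counted in other lists, such as Msrb1 and Gpx4, so its counts depend on how it was drawn. Selenoo, a mitochondrial selenoprotein, had 329 and 337 at P24 against 165 and 184 at P3 (0.93 ± 0.20, adjusted p = 0.00607). Its call was lost without P3 replicate 1, and 34.7% of its 50-base stretches occur in other genes, foremost Tubgcp6. Selenop, the secreted carrier of selenium, had 9795 and 10250.1 at P24 against 5469 and 5409 at P3 (0.88 ± 0.15, adjusted p = 0.00174). Selenoh, a nucleolar selenoprotein, had 471 and 518 at P24 against 1195 and 1421 at P3 (-1.40 ± 0.23, adjusted p = 0.00166). Selenon, of the endoplasmic reticulum, had 717 and 713 at P24 against 1463 and 1283 at P3 (-0.94 ± 0.24, adjusted p = 0.0138), a call lost without any 1 of the P3 or P24 libraries. Selenot, of the same compartment, had 6847 and 6219 at P24 against 4874 and 4357 at P3 (0.50 ± 0.16, adjusted p = 0.0386), a call lost with scaling by library total, with quantile normalization, with a Y-linked term and without any 1 of the P3, P12 or P24 libraries. Eefsec, the elongation factor that delivers selenocysteine, had 154 and 167 at P24 against 312 and 253 at P3 (-0.80 ± 0.20, adjusted p = 0.0137), and lost its call without P3 replicate 1 or either P24 library.

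Among 12 oxidant producing enzymes 11 were tested, of which 7 rose and 1 fell (72.7% called, against 36.9% of all tested genes), with a median of 0.98. Xdh, xanthine dehydrogenase, had 1242 and 1379 at P24 against 108 and 68.8 at P3, a 14.9-fold rise (3.91 ± 0.30, adjusted p = 2.06e-05). Maob, a monoamine oxidase of the outer mitochondrial membrane, had 940.2 and 1110.5 at P24 against 334 and 343 at P3 (1.59 ± 0.28, adjusted p = 0.00231). Cybb, the catalytic subunit of the phagocyte NADPH oxidase, had 611 and 646 at P24 against 239 and 194 at P3 (1.54 ± 0.27, adjusted p = 0.00224). The macrophage markers summed to 10968.5 and 11485 at P24 against 4212 and 3369.85 at P3, and their part in the level of Cybb was not tested. Nox4 had 20.3 and 41.8 at P24 against 89.7 and 71.0 at P3 (-1.42 ± 0.33, adjusted p = 0.00875), a call lost without either replicate 1 of P3 or P24. Of 3 metallothioneins 1 fell (33.3% called, close to the 36.9% of all tested genes). Mt3 had 20.3 and 19.7 at P24 against 319 and 271 at P3 (-3.81 ± 0.26, adjusted p = 9.65e-06).

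**Figure D5:**
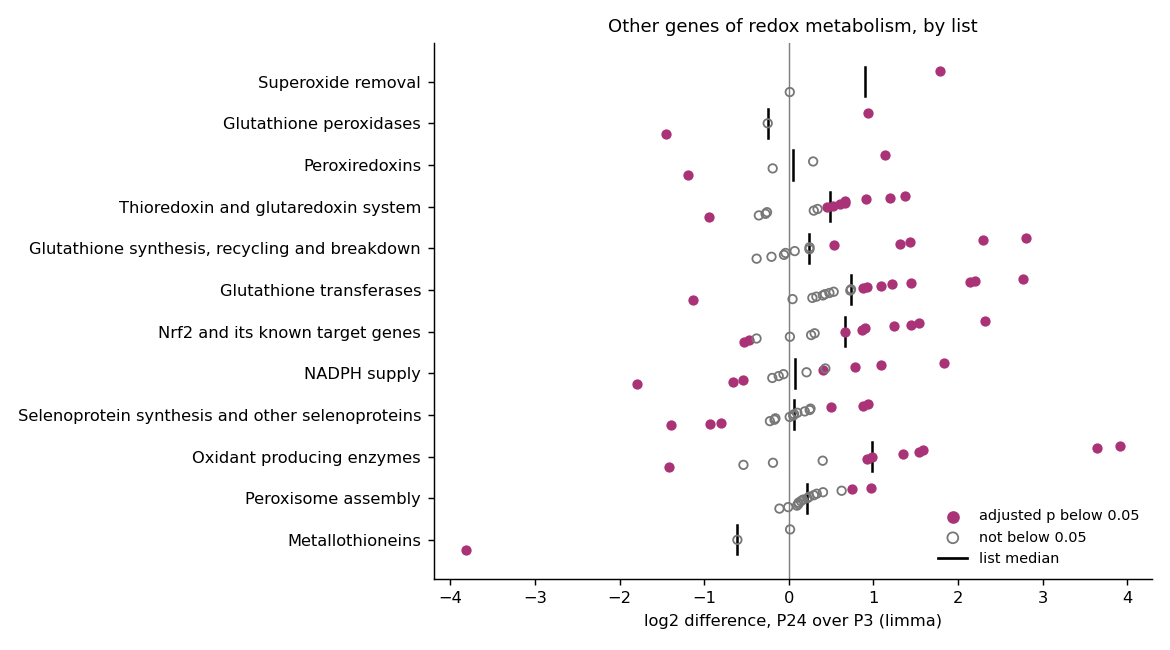
Log2 difference of P24 over P3 (horizontal axis) for the tested genes of 12 lists of other redox genes, with filled points for an adjusted p below 0.05 (limma) and a black line for the list median. Most points lie above 0 for transferases (17 of 18, median 0.73) and oxidant producers (8 of 11, median 0.98). The same holds for other lists, such as peroxisome assembly (13 of 15), the Nrf2 list (10 of 13) and the thioredoxin list (10 of 14). NADPH supply has 6 of 12 above 0, and glutathione peroxidases and metallothioneins have 1 of 3 each. The median of all tested genes was -0.02.

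By step, 3 of these 123 genes rose between P6 and P3 (2.44%, against 0.84% of the table, 0.655% higher and 0.185% lower): Me3 (0.97, adjusted p = 0.0375), Chac1 (adjusted p = 0.0482) and Duox1 (adjusted p = 0.0241). Between P12 and P6, Aox1 (1.16, adjusted p = 0.0191) and Gstm7 (0.94, adjusted p = 0.0431) rose and Mt3 (-1.79, adjusted p = 0.0154) fell, 2.44% against 2.26% of the table (0.996% higher and 1.26% lower). Between P24 and P12, 29 passed (23.6% against 16.3%), 21 higher (8.2% in the table) and 8 lower (8.14%). Among those with a mean of at least 50 at P12 or P24, the largest rises were those of Xdh (3.02, adjusted p = 0.000285), Aox1 (1.79, adjusted p = 0.000288) and Gstk1 (1.66, adjusted p = 0.0035). The largest falls were those of Mt3 (-2.13, adjusted p = 0.00089), Mthfd2 (-1.85, adjusted p = 0.000931) and Selenoh (-1.38, adjusted p = 0.00515). Duox2, at low counts of 23.0 and 22.1 at P24 against 7.38 and 1.93 at P12, also rose (2.25, adjusted p = 0.0358). Scaled by library total that split was 12 higher and 17 lower. All stages share 1 estimate of the spread per gene, to which the P6 replicates contribute. The counts depended on which libraries entered that fit, also on those of stages outside a comparison. That between P6 and P3 was 48 without P6 replicate 1, 8 without P6 replicate 2 and 0 without any 1 of the others, with 13 to 17 at an unadjusted p below 0.05, and was 2 with edgeR and 7 with DESeq2 on all libraries. The count between P12 and P6 was 8 without P6 replicate 1, 61 without P6 replicate 2, 1 without either P24 library and 0 without either P12 library, with 17 and 19 at an unadjusted p below 0.05, and was 4 with edgeR and 9 with DESeq2 on all libraries. The count between P24 and P12 was 18 without either P3 library or P12 replicate 1, 55 without either P6 library, 6 without P12 replicate 2, 7 without P24 replicate 1 and 12 without P24 replicate 2.

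The genes whose course was most like that of an enzyme were taken by Pearson r of log2 values over the 8 libraries, among 12109 genes, as a description of points that share stage and library. For Gsta3 they were Aldh2, the mitochondrial aldehyde dehydrogenase, Ogdhl and Cryab, each with r = 0.996. Aldh2 had a mean of 2489.8 at P3, then 2312 at P6, 3125 at P12 and finally 8603 at P24. For Gstm1 they were Tmtc1 (r = 0.993), Acot11 (r = 0.990) and Pcx (r = 0.986), of which Tmtc1 was also lower at P6 and P12 than at P3, with a mean of 1214 at P3, then 878 at P6, 945 at P12 and finally 3100.2 at P24. For Prdx3 they were Dld, the lipoamide dehydrogenase of the mitochondrial matrix (r = 0.996), Etfa (r = 0.992) and Hadhb (r = 0.992), and Dld had a mean of 12718.5 at P3, then 15219 at P6, 18028 at P12 and finally 20400.3 at P24.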

How the data were processed

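The authors deposited 1 table of protein-coding genes for all 8 libraries. Its values are the authors' normalized counts, a signal scaled between libraries per the file headers, and FPKM values, also deposited by the authors. Tools named in the submitters' processing notes are DESeq2 1.32.0, HTSeq 0.11.2, STAR 2.7.3a and Trim Galore 0.6.4, with the assembly GRCm39. Overlapping genes are uncertain, since the strand setting is not given in the sources used here, nor is the annotation release.

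Each library's values were whole multiples of 1 read for 100% of genes (tolerance 0.001). Because the table is normalized, limma 3.58.1 (R 4.3.3, trended eBayes) was used on log2(normalized count + 1), which understates changes of low genes, for genes of at least 10 in at least 2 libraries. All 8 libraries entered 1 fit with stage as a factor (4 residual and 4.83 prior degrees of freedom), with Benjamini-Hochberg adjustment over 14055 genes and a threshold of 0.05. The standard errors and p-values of every comparison, also of P24 over P3, thus include the spread between the P6 replicates. Fold changes are ratios of stage means. edgeR 4.0.16 and DESeq2 1.42.0 on the recovered reads, other scalings, filters and pseudocounts, a replicate block and leaving out libraries were alternatives. So were removal of the trend with gene length and a Y-linked term, the log2 summed level of the Y-linked genes per library.

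The enzymes and gene lists were chosen with earlier results of these data known. Named redox genes are, per list, the up to 3 largest rises and falls among calls with a mean of at least 50 at P3 or P24, the same per step over all lists, and Nnt. Ccs, Gstm2, Gstm5, Gclc, Abcc1, Duox2, Myl3, Pln, Rgs5, Kcnj8, Gpx2, Gpx5, Gpx6, Gpx8, Prdx1, Prdx2, Gsta1, Gsta2, Gsta4, Gstm3, Gstm4, Nfe2l2 and Duox1 were added after their values were seen. So were Acta2, Gclm, Gss, Gsr, Nfe2l1, Mafg, Mafk, Keap1, Bach1 and Blvrb. On simulated data for P24 over P3 (13910 genes) limma recovered 47 of 50 genes made to rise by 2 on the log2 scale and 21 of 50 made to rise by 1. For falls of the same sizes it recovered 45 of 50 and 25 of 50, and it called 6 of 13710 unchanged genes. Only 50 genes of each size were changed, far fewer than the 5187 called in the data, which alters the adjusted threshold. Each gene also had 1 spread at all stages, without the P6 replicate difference or the length trend. These shares are therefore not rates of recovery or of false calls for the data.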

Additional observations from a re-analysis of the deposited data

How the results depend on the processing

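For P24 over P3 the signs of Sod2, Gpx1, Gpx3, Prdx3, Prdx6, Gsta3 and Gstm1 were the same under every alternative run. Sod1 came to -0.0915 with quantile normalization, -0.33 with scaling by library total and -0.12 to 0.16 with 1 library left out. Cat and Txnrd1 came to -0.0797 and -0.11 with scaling by library total. Of 40 named redox genes, 26 kept their call in every alternative. The causes of these changes were not tested.

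Calls in the whole table for P24 over P3 were 5187, with 3018 to 7820 leaving out 1 library and 7811 without both P6 libraries, and the redox count ran over 35 to 83. For P6 over P3 the table had 118 calls, against 64 with scaling by library total, 70 with no filter, 302 with a length trend, 515 with DESeq2 and 6 to 4444 leaving out 1 library. The redox count of 3 was 1 with a mean of at least 50 or a pseudocount of 10, 7 with DESeq2 and 0 to 48 leaving out 1 library. For P12 over P6 the table had 317, against 189 with no filter, 573 with a length trend, 874 with DESeq2 and 0 to 5732 leaving out 1 library, and the redox count of 3 was 8 with a length trend, 5 with a Y-linked term, 9 with DESeq2 and 0 to 61 leaving out 1 library. For P24 over P12 the table had 2297, against 6028 without both P6 libraries and 518 to 6031 leaving out 1 library, and the redox count of 29 was 55 without both P6 libraries and 6 to 55 leaving out 1.

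The labels do not say that replicate numbers pair libraries. The correlation of replicate differences was 0.143, 0.161 and 0.324 among P3, P6 and P12, but 0.0336, -0.132 and -0.139 for the pairs with P24, so the numbers were not taken as pairing. With a replicate block the calls were 5610, 154, 512 and 2944 in the order of comparisons above, and 62, 3, 5 and 34 among redox genes. With 2 libraries per stage, a gene that did not pass is not shown to be level. Low reads limit Gsta3 before P24.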
